A study of Mus musculus with 13 samples.

Results

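The genes described here are 44 collagens, other structural proteins of the extracellular matrix, crosslinking enzymes, matricellular proteins, and the proteases and protease inhibitors that remodel the matrix. They were listed by gene symbol, and a gene was kept where a probe had a detection p-value under 0.05 on 3 or more arrays. Of the 44 genes, 41 had a probe named here and 37 passed this filter, among 10410 genes that passed it in all. Col6a3, Fbn1 and Loxl2 had no probe named here. Vcan, Postn, Thbs1 and Tnc did not pass: no array detected any probe of Vcan, Postn or Thbs1, and 2 of the 7 Tnc probes were each detected on 1 array.

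The hearts came from male C57BL/6 mice aged 8 to 10 weeks, and total RNA of each heart was hybridised to an Illumina mouse expression BeadChip, with 1 array taken as 1 mouse. Control mice (n = 5) received PBS. A further 5 mice received doxorubicin, an anthracycline used in chemotherapy and known for its toxicity to heart muscle, and 3 mice received sAcvR2B-Fc 48 hours before doxorubicin. All agents were given intraperitoneally, and hearts were collected 20 hours after the doxorubicin or PBS injection. sAcvR2B-Fc is the soluble ligand-binding part of activin receptor 2B fused to an antibody Fc region, which binds activins, myostatin and related ligands away from the cell surface. The dose of either agent, and whether the PBS and doxorubicin mice were also injected 48 hours earlier, are not stated in the sources used here, and mice given sAcvR2B-Fc alone were not analysed here. Because the RNA is that of whole hearts, fewer cells of a type and less RNA per cell cannot be told apart.

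The cardiac matrix is made mostly by fibroblasts, which surround the muscle bundles with fibrillar collagen, while cardiomyocytes, endothelial cells and mural cells also contribute to basement membranes of type IV collagen, laminin, nidogen and perlecan. Matrix metalloproteinases cut these proteins and are held back by tissue inhibitors of metalloproteinases (TIMPs). Growth factors of the TGF-beta and activin family are known inducers of collagen, fibronectin and Ccn2 in fibroblasts, and fibrosis is a late feature of anthracycline heart disease.

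Between 15989 and 17939 probes were detected per array, correlations between arrays over all tested genes ran from 0.97 to 0.993, and 10 of 11 cardiomyocyte marker genes passed the filter, with a mean log2 level of 13.8 to 14.1 on every array. The 2 deposited tables disagree on the sample names of 8 of the 13 arrays, and for 6 of these on the group. Groups here follow the names in the non-normalized table, and values under the other names stand at the end. Levels are log2 of the normalized signal with 16 added, which understates the change of dim genes. Genes with a limma p under 0.05 after adjustment over all 10410 genes are termed called, and differences are given ± SE. Both comparisons with control share the control arrays, and both comparisons with the doxorubicin group share its arrays.

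Few matrix genes passed the test at this early time. Mmp3, which encodes the matrix metalloproteinase stromelysin-1, rose after doxorubicin and also in hearts given sAcvR2B-Fc before doxorubicin. Col18a1, which encodes a basement membrane collagen and the parent chain of endostatin, fell in the pre-treated hearts against control. No other matrix gene passed the test in any of the 3 comparisons, and none passed in the pre-treated hearts against doxorubicin alone.

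**Figure D1:**
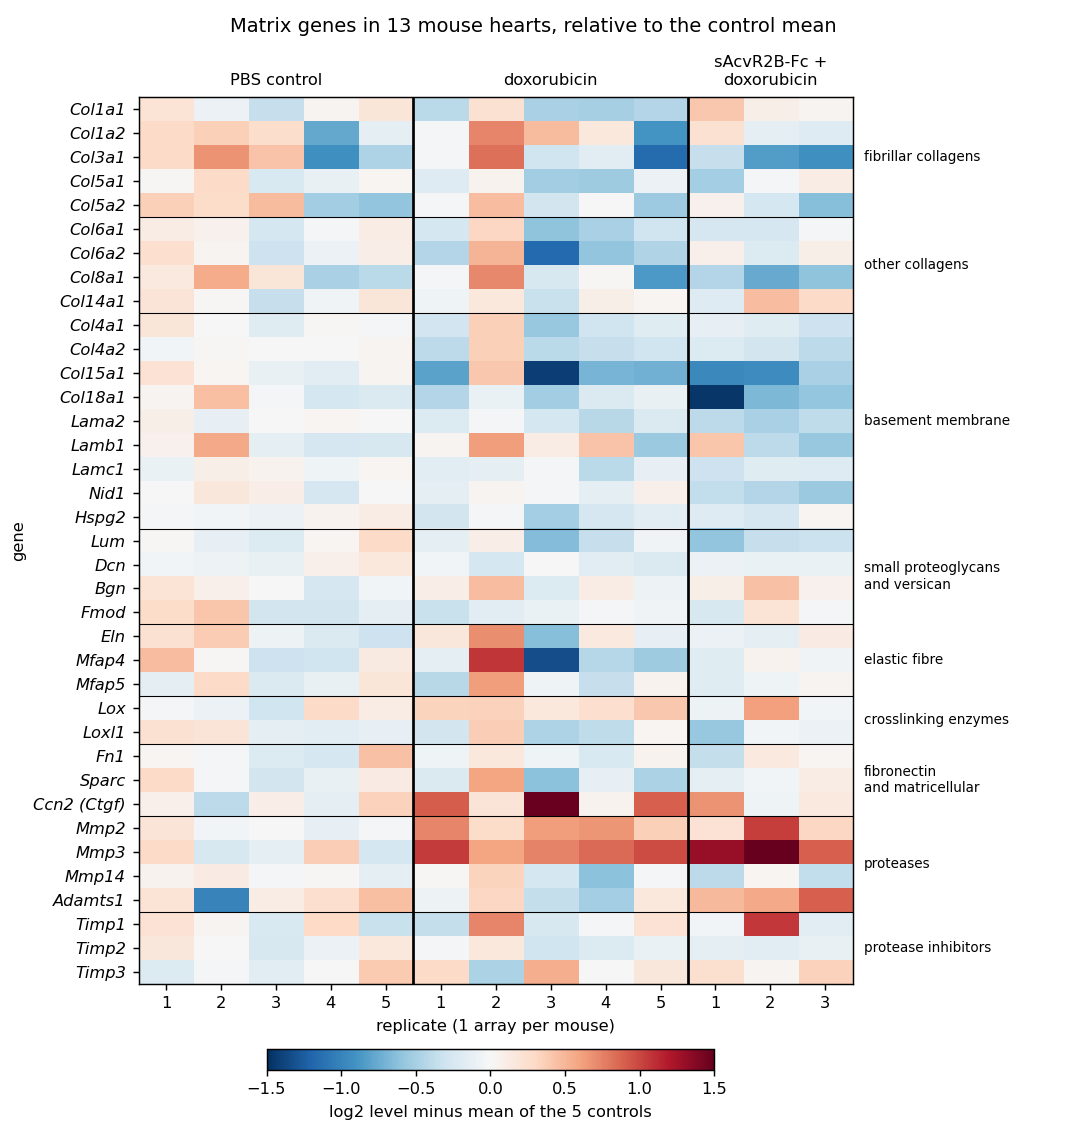
Log2 level of each of the 37 matrix genes (rows, grouped by role) on each of the 13 arrays (columns, by group and replicate), as the difference from the mean of the 5 controls, with colours ending at 1.5 in either direction. Mmp3 is above the control mean on all 8 doxorubicin-treated arrays, and doxorubicin replicate 2 is above it for 30 of the 37 genes.

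Doxorubicin replicate 2 stood apart from the other doxorubicin arrays. It lay above the control mean for 30 of the 37 genes, while the other 4 doxorubicin arrays did so for 8 to 12. Its mean over the 3 elastic fibre genes was 0.80 above the control mean on the log2 scale, over the 5 fibrillar collagens 0.46, over the 4 other collagens 0.43 and over the 9 basement membrane genes 0.17. For each of these 4 roles the other 4 doxorubicin arrays lay below the control mean. For the 4 proteases it lay at 0.38, within the range of the other doxorubicin arrays, 0.10 to 0.43. Some of its marker signals stood apart as well. Summed endothelial markers reached 18715, the highest of all 13 arrays, against 16157 to 16965 on the other doxorubicin arrays and 16240 to 17960 in controls. Smooth muscle and pericyte markers summed to 21579, against 13135 to 19644 on the other doxorubicin arrays. Fibroblast markers summed to 10793, against 9064 to 9784, and both of these sums lay within the control range. The summed signal of the 2 atrial markers that passed, of 4 listed, was 19697 on this array, 8641 to 10739 on the other doxorubicin arrays and 9656 to 12662 in controls. Nearly all of it was Nppa, at a log2 level of 14.25. Myl4 was at 7.98, against up to 7.83 in controls, but doxorubicin replicate 5 also lay above every control for Myl4. Myl7 and Sln did not pass. The summed signal of 3 of 5 erythroid markers was 19016 on this array, against 7672 to 10989 on the other doxorubicin arrays and 13384 to 20153 in controls. The 1 mesothelial marker that passed, of 6 listed, had its highest signal of all 13 arrays there, at 75.9. It was at 61.7 on doxorubicin replicate 5 and at up to 43.9 in controls. The part of these cells in the matrix values of this array was not tested, and values without it are given below wherever leaving it out changed a call, or moved a difference by over 1.5 times and by over 0.1 on the log2 scale.

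**Figure D2:**
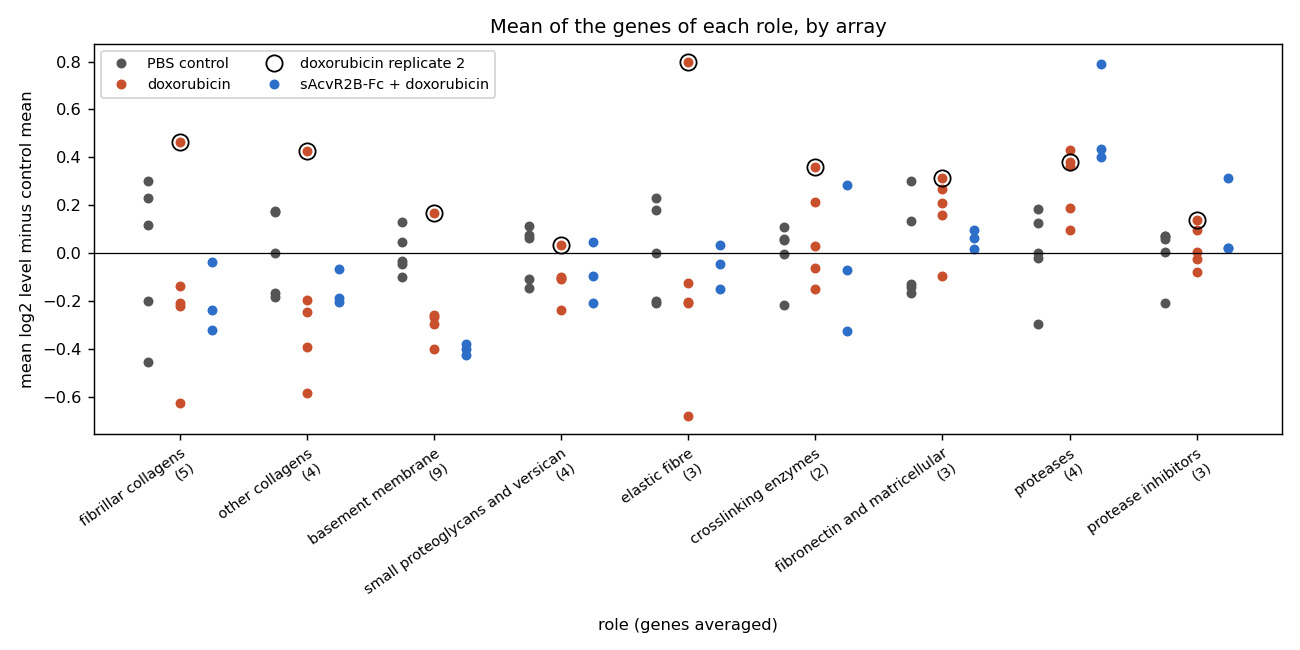
Mean log2 level of the genes of each role (number of genes in brackets) minus the control mean, with 1 point per array and a ring around doxorubicin replicate 2. For fibrillar collagens, other collagens, basement membrane and elastic fibre genes the ringed array is above 0 and the other 4 doxorubicin arrays are below 0, and all 3 pre-treated arrays lie between -0.42 and -0.38 for the basement membrane genes.

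Doxorubicin against control asks what the drug did to cardiac gene expression. Of the 37 matrix genes 1 was called, Mmp3, beside 0.24% of all genes (0.163% higher and 0.0768% lower). At an unadjusted p under 0.05 there were 7 matrix genes, 4 higher (Mmp3, Mmp2, Ctgf and Lox) and 3 lower (Col15a1, Lama2 and Hspg2), where 12.2% of all genes passed (5.98% higher and 6.27% lower). The groups did not overlap for Mmp3 and Mmp2, both higher, and for no gene lower, beside 1.47% of all genes higher and 1.38% lower. The median difference of the matrix genes was -0.11, against -0.0043 for all genes, and 27 of the 37 were below 0, against 51% of all genes. With median scaling in place of quantile normalization the median of all genes moved up by 0.13 and that of the matrix genes became 0.02, which is -0.10 relative to all genes.

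Without doxorubicin replicate 2, 4 matrix genes were called in this comparison, Mmp3 higher and Col15a1, Col4a2 and Col6a2 lower, beside 3.19% of all genes (1.83% higher and 1.35% lower). At an unadjusted p under 0.05, 3 were higher and 11 lower, while 7.88% of all genes were higher and 8.67% lower (16.6% together). The 11 lower genes were Col1a1, Col4a1, Col4a2, Col5a1, Col6a1, Col6a2, Col15a1, Hspg2, Lama2, Mfap4 and Sparc. The median then was -0.20, and 31 of 37 genes were below 0, against 51.2% of all genes.

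sAcvR2B-Fc before doxorubicin against doxorubicin alone asks how the hearts given both agents differed from those given the drug only. Without mice given sAcvR2B-Fc alone, its own effect and a changed response to the drug cannot be told apart. None of the 37 matrix genes was called, beside 0.0865% of all genes (0.0288% higher and 0.0576% lower). At an unadjusted p under 0.05 there were 3 higher (Col1a1, Mmp3 and Adamts1) and 2 lower (Col18a1 and Nid1), while 11.3% of all genes passed (6.08% higher and 5.26% lower). The groups did not overlap for Adamts1, higher, and for Col18a1 and Nid1, lower, beside 4.18% of all genes higher and 2.8% lower. The median difference was -0.04, against 0.018 for all genes, and 22 of 37 were below 0, against 46.5% of all genes. Without doxorubicin replicate 2 no matrix gene was called either, beside 0.0576% of all genes, and the median turned to 0.04.

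sAcvR2B-Fc before doxorubicin against control gives the joint difference of both agents from PBS. The test called 2 matrix genes, Mmp3 higher and Col18a1 lower, beside 1.23% of all genes (0.701% higher and 0.528% lower). At an unadjusted p under 0.05 there were 3 higher (Mmp3, Mmp2 and Adamts1) and 6 lower (Col15a1, Col18a1, Lama2, Lamc1, Nid1 and Lum), while 18.3% of all genes passed (10.1% higher and 8.18% lower). The groups did not overlap for the same 3 genes higher and for 7 genes lower (the same 6 and Col4a2), beside 8.06% of all genes higher and 5.81% lower. The median difference was -0.10, against 0.00089 for all genes, and 27 of 37 were below 0, against 49.9% of all genes. Median scaling moved the median of all genes up by 0.13 here too and that of the matrix genes to 0.01, which is -0.13 relative to all genes. Without doxorubicin replicate 2, which enters here only through the shared estimate of the spread, 5 matrix genes were called (Mmp3, Col15a1, Col18a1, Lama2 and Nid1), beside 2.82% of all genes.

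**Figure D3:**
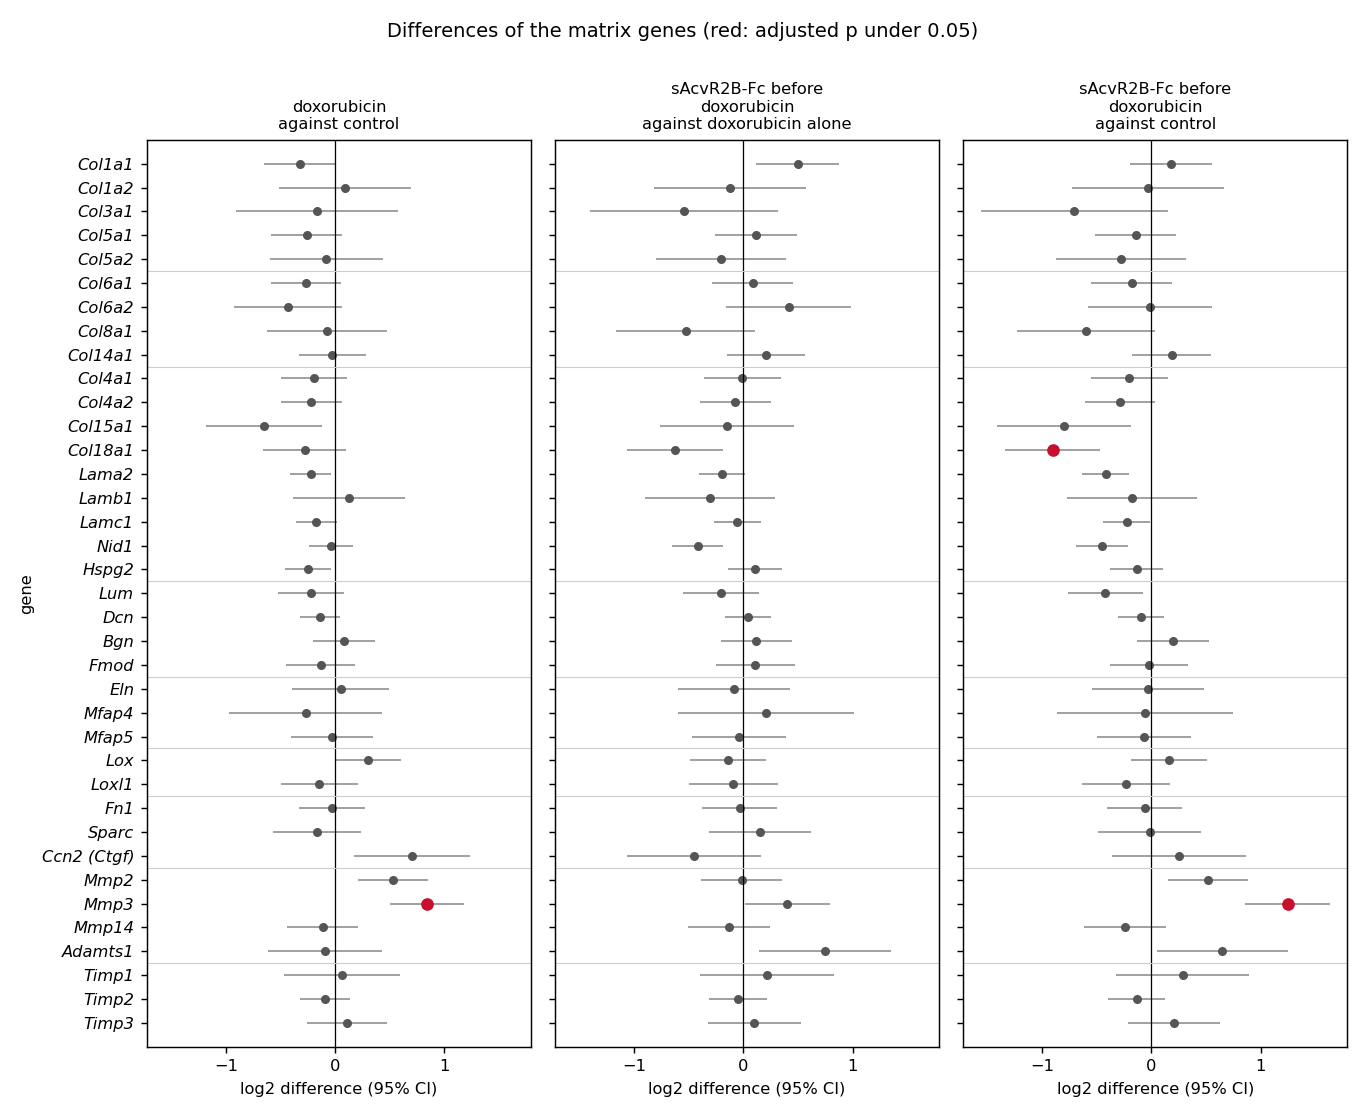
Log2 difference of each matrix gene (points) with its 95% confidence interval (lines) in the 3 comparisons, with genes called at an adjusted p under 0.05 in red. The red points are Mmp3 at 0.84 after doxorubicin against control, and Mmp3 at 1.25 and Col18a1 at -0.90 in the pre-treated hearts against control.

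Among the proteases, Mmp3 stood highest in the pre-treated hearts and lowest in the controls. Stromelysin-1 cuts proteoglycans, fibronectin, laminin and nidogen, and activates the precursors of other metalloproteinases. Its log2 level was 6.05, 5.52, 5.62, 6.13 and 5.49 in the 5 controls, 6.81, 6.36, 6.51, 6.61 and 6.74 in the 5 doxorubicin hearts, and 7.07, 7.29 and 6.66 in the 3 pre-treated hearts. Every treated heart lay above every control, while 1 pre-treated heart lay within the doxorubicin range. Mmp3 rose by 0.84 ± 0.16 after doxorubicin, 1.79-fold (adjusted p = 0.0453 in limma), and by 1.25 ± 0.18 in the pre-treated hearts against control, 2.37-fold (adjusted p = 0.00659). Pre-treated hearts differed from doxorubicin alone by 0.40 ± 0.18, a difference that did not pass (adjusted p = 0.435).

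All 3 Mmp3 probes lay above control in both treated groups. The other 2 probes, detected on 8 and 10 arrays, gave 1.01 ± 0.19 and 1.37 ± 0.24 after doxorubicin and 1.14 ± 0.22 and 0.82 ± 0.27 in the pre-treated hearts against control. Against doxorubicin alone they gave 0.13 ± 0.22 and -0.55 ± 0.27, so the probes had no common sign. The call after doxorubicin held in 5 of 13 fits that each left out 1 array (adjusted p from 0.0133 to 0.15) and was lost without control replicates 2, 3 or 5, doxorubicin replicates 1, 3, 4 or 5, or pre-treated replicate 1. The call in the pre-treated hearts against control held in all 13 (adjusted p from 0.00461 to 0.044).

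The promoter window of Mmp3 is shown because this gene carried the calls in 2 comparisons. It covers 250 bases before to 50 after the annotated start, from RefSeq on GRCm38.p6 at chr9:7445572-7445871, plus strand, written 5′ to 3′, with capitals on matches to 4 motifs: the AP-1 motif TGANTCA, the SMAD box CAGAC and the GC box GGGCGG, each on both strands, and the TATA box TATAAA on the strand of the gene.
Mmp3: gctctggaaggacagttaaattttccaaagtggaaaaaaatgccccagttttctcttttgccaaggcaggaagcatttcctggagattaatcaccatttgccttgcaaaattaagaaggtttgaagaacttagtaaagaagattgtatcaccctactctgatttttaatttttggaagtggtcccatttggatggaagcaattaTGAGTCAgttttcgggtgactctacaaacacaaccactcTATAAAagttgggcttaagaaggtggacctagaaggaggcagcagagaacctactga
The window held an AP-1 match beginning 46 bases before the start and a TATA box beginning 7 bases before it, and the matches do not overlap. Of all 32851 windows of this length, 7.81% held the AP-1 motif and 8.32% the TATA box. Of the 25 windows of matrix genes, which cover 23 of the 37, 2 held the AP-1 motif and 3 the TATA box.

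Neutrophil markers lay higher in both treated groups than in controls. Of 8 neutrophil markers 4 passed the filter, and their summed signal was 97.4 to 132.0 in controls, 287 to 776 after doxorubicin and 387 to 415 in pre-treated hearts. S100a8 and S100a9 were each detected on 1 control array, and Retnlg and Csf3r on none. These 4 thus passed only through the treated arrays, so a control sum near background is in part a result of the filter. Between the treated groups 3 of the 4 were below 0. S100a8 and S100a9, the neutrophil calprotectin subunits, were the 2 called in both comparisons with control, and the neutrophil markers Cxcr2, Mmp8 and Ngp did not pass. The summed signal of 9 macrophage markers was 2566 to 4197 in controls, 3410 to 4259 after doxorubicin and 3667 to 6645 in pre-treated hearts, with overlapping groups. None of the 9 was called after doxorubicin, where 6 were above 0 and 3 below, with a median of 0.35. At an unadjusted p under 0.05, 4 were higher there and none lower, beside 5.98% of all genes higher. In pre-treated hearts against control 8 of the 9 were above 0, with a median of 0.58. There 4 were higher at an unadjusted p under 0.05 and 4 were higher without overlap, beside 10.1% and 8.06% of all genes. Only 1 was called there, Vsig4, a receptor of resident macrophages. The part of neutrophils and macrophages in the Mmp3 result was not tested.

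Mmp2, which encodes gelatinase A, an enzyme that cuts denatured and type IV collagen, lay higher in both treated groups without passing the test. Levels of Mmp2 were 10.80, 10.56, 10.60, 10.49 and 10.58 in controls, 11.34, 10.88, 11.24, 11.26 and 10.97 after doxorubicin, and 10.82, 11.64 and 10.92 in pre-treated hearts. All 8 treated hearts lay above all 5 controls, by a narrow margin for pre-treated replicate 1. The difference from control was 0.53 ± 0.15 after doxorubicin (adjusted p = 0.158) and 0.52 ± 0.17 in pre-treated hearts (adjusted p = 0.131). Between the treated groups it was -0.01 ± 0.17, with a 95% interval of -0.38 to 0.35. Mmp14, the membrane-bound activator of pro-Mmp2, had differences of -0.11, -0.13 and -0.24 in the 3 comparisons, with overlapping groups in each, and without doxorubicin replicate 2 the first and second were -0.22 and -0.02.

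Adamts1, a protease that cuts versican and aggrecan, gave opposite answers with its 2 probes. By the brighter probe its log2 level was 6.01, 4.80, 5.92, 6.06 and 6.26 in controls, 5.73, 6.12, 5.45, 5.30 and 5.96 after doxorubicin, and 6.29, 6.38 and 6.71 in pre-treated hearts. The pre-treated hearts lay above all others, and control replicate 2, below detection, lay far under the other controls. The difference was -0.10 ± 0.24 after doxorubicin, 0.74 ± 0.28 in pre-treated hearts against doxorubicin alone (adjusted p = 0.387) and 0.65 ± 0.28 against control (adjusted p = 0.242), and without doxorubicin replicate 2 the first was -0.20 ± 0.25. The other probe, detected on 8 arrays, gave 0.26 ± 0.22, -0.29 ± 0.25 and -0.02 ± 0.25.

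None of the 3 TIMPs passed the test in any comparison. Timp1, an inhibitor often raised in injured heart, had log2 levels of 6.39, 6.22, 5.95, 6.47 and 5.84 in controls, 5.82, 6.90, 5.94, 6.15 and 6.39 after doxorubicin, and 6.14, 7.24 and 6.00 in pre-treated hearts. Doxorubicin replicate 2 and pre-treated replicate 2 were above all controls and the other arrays lay within or just below the control range. The Timp1 difference from control was 0.06 ± 0.25 after doxorubicin and 0.28 ± 0.29 in pre-treated hearts, and 0.22 ± 0.29 between the treated groups. The Timp1 difference without doxorubicin replicate 2 was -0.10 ± 0.23 after doxorubicin and 0.39 ± 0.27 between the treated groups. Timp2, which also takes part in the activation of pro-Mmp2, had differences of -0.09, -0.05 and -0.14. Timp3, which is bound to the matrix, had differences of 0.11, 0.10 and 0.21 by its bright probe and -0.07, -0.21 and -0.29 as well as -0.05, -0.11 and -0.16 by 2 dim probes, so its sign depends on the probe. By the bright probe, leaving out doxorubicin replicate 2 gave 0.25 after doxorubicin and -0.04 between the treated groups.

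**Figure D4:**
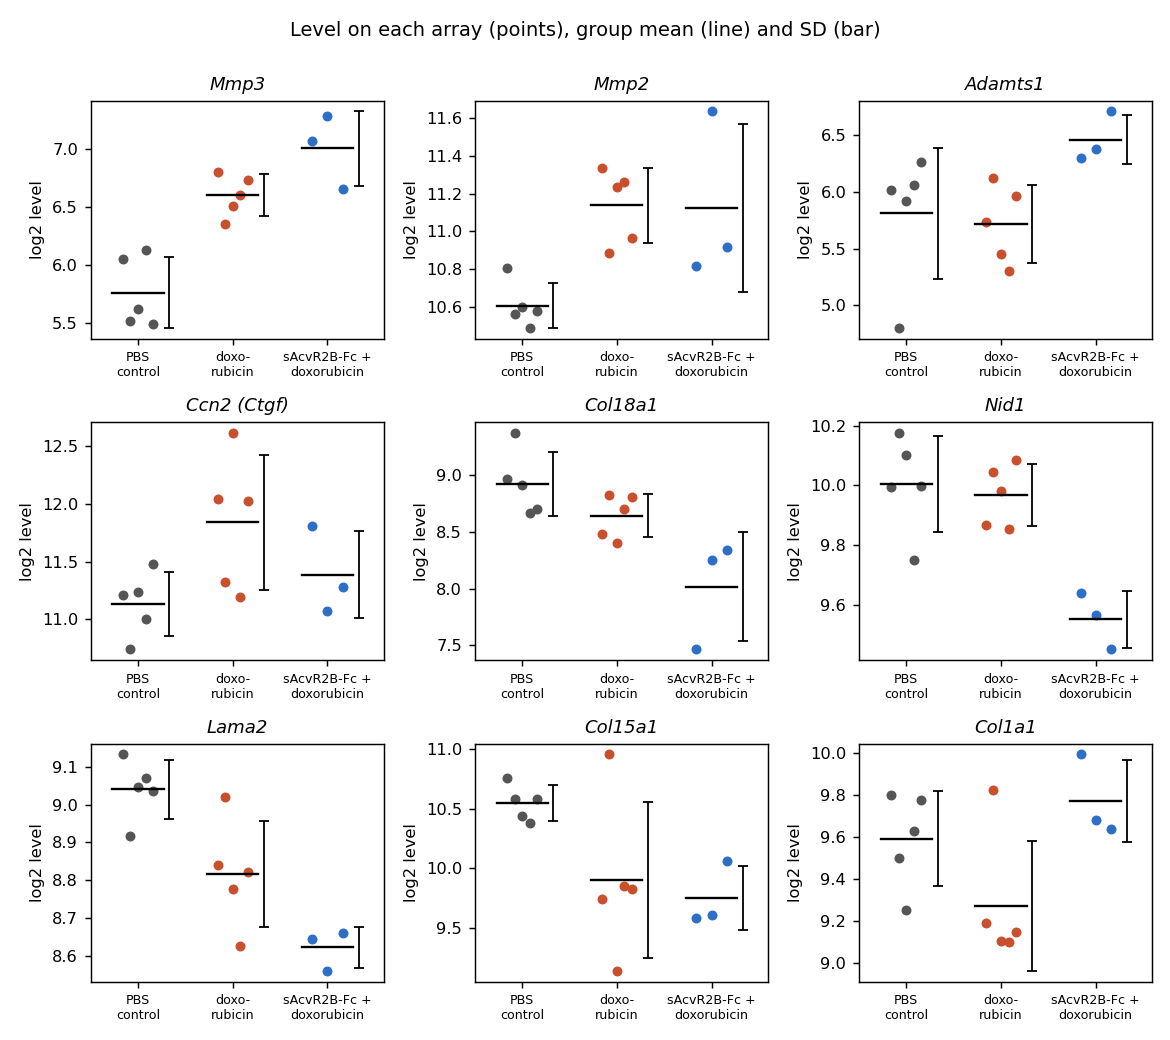
Log2 level of 9 matrix genes on each array (points) by group, with the group mean (line) and SD (bar, n = 5, 5 and 3). Every treated heart is above every control for Mmp3 and Mmp2, every pre-treated heart is below every other heart for Col18a1 and Nid1, and doxorubicin replicate 2 is the high doxorubicin point for Col15a1 and Col1a1.

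The 9 basement membrane genes lay mostly below control in both treated groups. In pre-treated hearts against control all 9 differences were below 0, beside 49.9% of all genes, with a median of -0.29. Of the 9, 5 had an unadjusted p under 0.05, 6 had groups that did not overlap, and 1, Col18a1, passed the test, where 8.18%, 5.81% and 0.528% of all genes did so in that direction. The mean of the 9 genes relative to the control mean was -0.40, -0.42 and -0.38 in the pre-treated hearts and -0.10 to 0.13 in the controls. It was -0.30, 0.17, -0.40, -0.26 and -0.26 in doxorubicin replicates 1 to 5. After doxorubicin 8 of 9 differences were below 0, beside 51% of all genes, with a median of -0.22. Of these, 3 had an unadjusted p under 0.05, beside 6.27% of all genes lower, and none was called. With median scaling Nid1 turned to 0.10 after doxorubicin while all 9 stayed below 0 in the pre-treated hearts. Between the treated groups 8 of 9 were below 0, with a median of -0.15, 2 of them at an unadjusted p under 0.05 and none called. Of all genes 46.5% were below 0 there and 5.26% were lower at an unadjusted p under 0.05. The pattern between the treated groups rested on doxorubicin replicate 2. Without that array 5 of 9 were below 0, with a median of -0.05, and Col4a1, Col4a2, Col15a1 and Hspg2 were at 0.13, 0.07, 0.11 and 0.17. Some summed marker signals were lower in the pre-treated hearts as well, without overlap with the controls. That of 6 lymphatic endothelial markers was 1508 to 1614 against 2017 to 2539. That of the 2 atrial markers, mostly Nppa, was 6310 to 8371 against 9656 to 12662. Of the 6 lymphatic markers, however, 3 were above control and 3 below. The lower sum came mainly from Ccl21a, at a mean log2 level of 6.89 against 9.90 in controls. Lyve1 was higher, at 8.40 against 7.30, without overlap. Of these 8 markers 1 was called against control, the lymphatic chemokine Ccl21a, at -3.01 ± 0.24 (adjusted p = 2.5e-05). Of the 9 endothelial markers that passed, 6 were below 0 against control, with a median of -0.11. Tek was lower without overlap, at a mean log2 level of 10.03 against 10.42 in controls. Only 1 endothelial marker was called, and it was higher: Eng, a TGF-beta coreceptor, at 0.49 ± 0.11 (adjusted p = 0.0424 in limma). Their part in the basement membrane values was not tested.

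Col18a1 encodes the chain of type XVIII collagen, a heparan sulfate proteoglycan of vascular and epithelial basement membranes. Its log2 level was 8.97, 9.37, 8.91, 8.66 and 8.70 in controls, 8.48, 8.82, 8.40, 8.70 and 8.81 after doxorubicin, and 7.46, 8.25 and 8.34 in pre-treated hearts. The pre-treated hearts lay below all 10 others, replicate 1 by the most, while the doxorubicin and control groups overlapped. Col18a1 fell by 0.90 ± 0.20 in pre-treated hearts against control, 1.87-fold lower (adjusted p = 0.0488 in limma). The difference was -0.62 ± 0.20 against doxorubicin alone (adjusted p = 0.356) and -0.28 ± 0.18 after doxorubicin (adjusted p = 0.564).

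The Col18a1 call was narrow. In 13 fits that each left out 1 array the adjusted p ran from 0.0374 to 0.128, and it passed only without doxorubicin replicate 2. A second probe, detected on 8 arrays, gave -0.24 ± 0.17 in pre-treated hearts against control, 0.00 ± 0.17 against doxorubicin alone and -0.24 ± 0.14 after doxorubicin. Col18a1 has 2 windows in the promoter table, both shown because the 2 probes differ, from RefSeq on GRCm38.p6, minus strand, at chr10:77113656-77113955 and chr10:77166481-77166780, with capitals as above. Which transcripts each probe reads is not stated in the sources used here.
Col18a1 window 1: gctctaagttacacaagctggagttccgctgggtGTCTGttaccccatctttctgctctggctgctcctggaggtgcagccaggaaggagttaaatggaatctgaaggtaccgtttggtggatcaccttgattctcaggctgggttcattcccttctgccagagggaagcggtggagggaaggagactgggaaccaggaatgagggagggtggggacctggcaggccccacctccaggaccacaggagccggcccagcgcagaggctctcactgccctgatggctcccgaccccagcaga
Col18a1 window 2: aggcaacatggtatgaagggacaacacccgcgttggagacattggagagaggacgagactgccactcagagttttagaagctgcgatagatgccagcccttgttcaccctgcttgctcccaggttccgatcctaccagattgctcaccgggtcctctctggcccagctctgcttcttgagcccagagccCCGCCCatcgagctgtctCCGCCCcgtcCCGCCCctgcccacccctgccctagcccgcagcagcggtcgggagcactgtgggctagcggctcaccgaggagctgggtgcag
The first held 1 SMAD box, beginning 216 bases before the start, and no GC box, and the second held 3 GC boxes, beginning 61, 43 and 33 bases before the start. A GC box was in 35.7% of all windows and in 18 of the 25 matrix windows, and a SMAD box in 49.6% and in 12 of 25.

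Nid1 and Lama2 came closest to the threshold among the genes that were not called. Nid1 encodes nidogen, which links laminin to type IV collagen. Levels of Nid1 were 9.99, 10.18, 10.10, 9.75 and 10.00 in controls, 9.87, 10.05, 9.98, 9.85 and 10.08 after doxorubicin, and 9.64, 9.56 and 9.45 in pre-treated hearts. The pre-treated hearts lay below every other heart, and the doxorubicin hearts lay within the control range. The Nid1 difference was -0.45 ± 0.11 against control (adjusted p = 0.0592), -0.42 ± 0.11 against doxorubicin alone (adjusted p = 0.232) and -0.04 ± 0.09 after doxorubicin. Its other probe gave -0.43 ± 0.16, -0.04 ± 0.16 and -0.39 ± 0.14, so the probes gave the same sign but placed the difference in different groups. The call against control was reached without control replicate 4 (adjusted p = 0.0443) and without doxorubicin replicate 2 (adjusted p = 0.0483).

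Lama2 encodes the laminin chain of the muscle basement membrane, whose loss causes congenital muscular dystrophy. Levels of Lama2 were 9.13, 8.92, 9.05, 9.07 and 9.03 in controls, 8.84, 9.02, 8.78, 8.63 and 8.82 after doxorubicin, and 8.64, 8.56 and 8.66 in pre-treated hearts. All pre-treated hearts and all doxorubicin hearts except replicate 2 lay below all controls. The Lama2 difference was -0.42 ± 0.10 in pre-treated hearts against control (adjusted p = 0.0585), -0.22 ± 0.09 after doxorubicin (adjusted p = 0.295) and -0.19 ± 0.10 between the treated groups (adjusted p = 0.478). Without doxorubicin replicate 2 it passed in pre-treated hearts against control (adjusted p = 0.0292).

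Lamc1, a laminin chain found in most basement membranes, had log2 levels of 11.20, 11.39, 11.35, 11.25 and 11.33 in controls, 11.15, 11.16, 11.28, 10.90 and 11.18 after doxorubicin, and 10.99, 11.13 and 11.12 in pre-treated hearts. Only the pre-treated group was wholly below the controls. The difference was -0.23 ± 0.10 there (adjusted p = 0.251), -0.17 ± 0.09 after doxorubicin (adjusted p = 0.451) and -0.06 ± 0.10 between the treated groups. Its other probe gave -0.01 ± 0.17, -0.08 ± 0.15 and 0.07 ± 0.17. Lamb1, the partner beta chain, was detected on 1 control, 3 doxorubicin and 1 pre-treated arrays, with differences from -0.31 to 0.13 in the 3 comparisons and overlapping groups. The Lamb1 difference without doxorubicin replicate 2 was 0.00 after doxorubicin and -0.18 between the treated groups.

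Col15a1 encodes type XV collagen, which lies at the outer face of muscle and capillary basement membranes. Levels of Col15a1 were 10.76, 10.58, 10.44, 10.38 and 10.58 in controls, 9.74, 10.96, 9.14, 9.85 and 9.83 after doxorubicin, and 9.58, 9.61 and 10.06 in pre-treated hearts. Only doxorubicin replicate 2 of the 8 treated hearts lay above the lowest control, and it lay above all controls. The Col15a1 difference was -0.65 ± 0.25 after doxorubicin (adjusted p = 0.294), -0.80 ± 0.29 in pre-treated hearts against control (adjusted p = 0.16) and -0.15 ± 0.29 between the treated groups. Without that array Col15a1 passed at -0.91 ± 0.16 after doxorubicin (adjusted p = 0.0107) and at -0.80 ± 0.17 in pre-treated hearts against control (adjusted p = 0.0299).

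Col4a1 and Col4a2 encode the 2 chains of the main type IV collagen and share a promoter region, from which they are transcribed in opposite directions. Col4a2 had log2 levels of 12.26, 12.33, 12.29, 12.30 and 12.34 in controls, 11.91, 12.66, 11.91, 11.96 and 12.00 after doxorubicin, and 12.10, 12.03 and 11.92 in pre-treated hearts. All treated hearts except doxorubicin replicate 2 lay below all controls, and that array lay above them. The Col4a2 difference was -0.22 ± 0.13 after doxorubicin (adjusted p = 0.536), -0.29 ± 0.15 in pre-treated hearts against control (adjusted p = 0.327) and -0.07 ± 0.15 between the treated groups, and without that array it passed after doxorubicin at -0.36 ± 0.07 (adjusted p = 0.0239). Col4a1 ranged from 12.46 to 12.83 in controls, from 12.08 to 13.00 after doxorubicin, where replicate 2 was again the highest, and from 12.33 to 12.52 in pre-treated hearts. Its differences were -0.19 ± 0.14, -0.20 ± 0.16 and -0.01 ± 0.16 in the same order, and without that array the first was -0.33 ± 0.10 (adjusted p = 0.106).

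The promoter windows of the pair are shown because the genes face each other. They lie at chr8:11312555-11312854, plus strand, for Col4a2 and chr8:11312777-11313076, minus strand, for Col4a1, on GRCm38.p6 from RefSeq, with capitals as above.
Col4a2: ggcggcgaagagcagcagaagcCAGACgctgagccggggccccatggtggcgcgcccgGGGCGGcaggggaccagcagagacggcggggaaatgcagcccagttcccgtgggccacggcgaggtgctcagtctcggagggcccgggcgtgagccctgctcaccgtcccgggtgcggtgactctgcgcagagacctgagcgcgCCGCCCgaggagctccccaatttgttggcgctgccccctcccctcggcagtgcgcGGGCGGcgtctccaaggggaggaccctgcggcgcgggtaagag
Col4a1: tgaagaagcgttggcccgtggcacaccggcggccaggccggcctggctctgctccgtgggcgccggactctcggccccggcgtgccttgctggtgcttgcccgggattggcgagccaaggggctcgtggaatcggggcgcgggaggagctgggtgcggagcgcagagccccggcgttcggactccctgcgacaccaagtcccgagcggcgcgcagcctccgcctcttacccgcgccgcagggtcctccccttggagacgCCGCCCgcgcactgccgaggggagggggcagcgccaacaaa
The annotated starts are 21 bases apart, the windows overlap by 78 bases, and GC made up 73.7% and 74.0% of their bases. The Col4a2 window held 1 SMAD box and 3 GC boxes, and the Col4a1 window 1 GC box, the match nearest the Col4a2 start being the same site read from the other strand.

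Hspg2 encodes perlecan, the large heparan sulfate proteoglycan of basement membranes. Its log2 level was 12.00, 11.99, 11.94, 12.07 and 12.13 in controls, 11.75, 12.00, 11.52, 11.77 and 11.86 after doxorubicin, and 11.84, 11.77 and 12.06 in pre-treated hearts. Doxorubicin replicate 2 was within the control range and the other 4 were below it. The Hspg2 difference was -0.25 ± 0.10 after doxorubicin (adjusted p = 0.319), 0.11 ± 0.11 between the treated groups and -0.14 ± 0.11 in pre-treated hearts against control. Its other probe gave -0.19 ± 0.11, -0.06 ± 0.12 and -0.25 ± 0.12.

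The 5 fibrillar collagens gave no call. Col1a1, the main chain of type I collagen, had log2 levels of 9.80, 9.50, 9.25, 9.63 and 9.77 in controls, 9.19, 9.82, 9.10, 9.10 and 9.14 after doxorubicin, and 9.99, 9.68 and 9.63 in pre-treated hearts. Of the doxorubicin hearts 4 lay below all controls and all pre-treated hearts, and replicate 2 lay above all controls. The Col1a1 difference was -0.32 ± 0.15 after doxorubicin (adjusted p = 0.42), 0.50 ± 0.18 in pre-treated hearts against doxorubicin alone (adjusted p = 0.371) and 0.18 ± 0.18 against control (adjusted p = 0.633). Without replicate 2 the first was -0.46 ± 0.12 (adjusted p = 0.0627).

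Col1a2, the partner chain of type I collagen, did not follow Col1a1 across arrays. Its log2 level was 6.25, 6.32, 6.22, 5.19 and 5.81 in controls, 5.92, 6.69, 6.44, 6.12 and 5.07 after doxorubicin, and 6.18, 5.83 and 5.76 in pre-treated hearts. Control replicate 4 and doxorubicin replicate 5 were below detection and the lowest of their groups. The differences were 0.09 ± 0.28, -0.12 ± 0.32 and -0.03 ± 0.32, each with a 95% interval reaching at least 0.51 in either direction. Leaving out doxorubicin replicate 2 turned the first to -0.07 ± 0.28 and the second to 0.04 ± 0.32. Col3a1, the type III collagen chain of compliant tissue, had levels of 7.80, 8.18, 7.93, 6.59 and 7.05 in controls, 7.49, 8.34, 7.21, 7.34 and 6.35 after doxorubicin, and 7.16, 6.67 and 6.58 in pre-treated hearts. It was low on the same control and doxorubicin arrays as Col1a2, and its spread within groups (residual SD 0.63 log2) was the widest of the 37 genes. Its differences were -0.16 ± 0.35, -0.54 ± 0.40 and -0.71 ± 0.40 (adjusted p = 0.896, 0.613 and 0.37), and without doxorubicin replicate 2 the first was -0.41 ± 0.32 and the second -0.29 ± 0.36.

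Col5a1 and Col5a2, the chains of the type V collagen that starts fibrils, gave differences between -0.28 and 0.11 with overlapping groups in all 3 comparisons. Col5a2 was detected on 3 controls, 4 doxorubicin and 1 pre-treated arrays, and its lowest arrays were control replicates 4 and 5, doxorubicin replicate 5 and pre-treated replicate 3. The Col5a2 difference without doxorubicin replicate 2 was -0.22 after doxorubicin and -0.07 between the treated groups. Across the 37 genes the median residual SD was 0.257 on the log2 scale, against 0.216 over all genes.

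Of the other collagens, Col6a1 and Col6a2 encode chains of the microfibril-forming type VI collagen that sits between basement membrane and interstitium. Col6a2 ranged from 8.47 to 9.04 in controls, from 7.62 to 9.28 after doxorubicin and from 8.57 to 8.87 in pre-treated hearts. The highest doxorubicin value was replicate 2, and the other 4 were below all controls. Its difference was -0.43 ± 0.23 after doxorubicin (adjusted p = 0.474), and without that array it passed at -0.66 ± 0.16 (adjusted p = 0.0443). It was 0.41 ± 0.27 between the treated groups, or 0.65 ± 0.18 without that array (adjusted p = 0.271), and -0.01 ± 0.27 in pre-treated hearts against control. A dim second probe gave -0.09 ± 0.16, 0.10 ± 0.19 and 0.01 ± 0.19. Col6a1 gave -0.27 ± 0.15, 0.09 ± 0.17 and -0.18 ± 0.17, and its other probe -0.26 ± 0.13, -0.02 ± 0.15 and -0.28 ± 0.15. By the brighter Col6a1 probe, the first was -0.41 ± 0.11 (adjusted p = 0.0632) and the second 0.23 ± 0.12 without doxorubicin replicate 2.

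Col8a1, a short-chain collagen of vessels and injured myocardium, gave differences of -0.07 ± 0.26, -0.53 ± 0.30 and -0.60 ± 0.30 (adjusted p = 0.942, 0.514 and 0.3). Its other probe, detected on all 13 arrays, gave -0.35 ± 0.25, -0.06 ± 0.29 and -0.41 ± 0.29. By that probe both treated groups lay similarly far below control, with no unadjusted limma p under 0.05. Without doxorubicin replicate 2 the first and second by the brighter probe were -0.27 ± 0.23 and -0.33 ± 0.26. The Col8a1 level in the pre-treated hearts, 8.12, 7.80 and 7.95, overlapped the lower controls, 8.06 and 8.16, and the lowest doxorubicin heart, 7.69. Col14a1, a fibril-associated collagen, gave -0.02 ± 0.14, 0.21 ± 0.17 and 0.18 ± 0.17, and its other probe 0.01 ± 0.11, 0.41 ± 0.12 and 0.42 ± 0.12.

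The small leucine-rich proteoglycans, which bind collagen fibrils and set their spacing, gave no call. Lum, which encodes lumican, had log2 levels of 9.83, 9.68, 9.59, 9.83 and 10.09 in controls, 9.67, 9.90, 9.15, 9.45 and 9.75 after doxorubicin, and 9.22, 9.46 and 9.48 in pre-treated hearts. The pre-treated hearts lay below all controls and within the doxorubicin range. The Lum difference was -0.42 ± 0.16 against control (adjusted p = 0.188), -0.22 ± 0.14 after doxorubicin and -0.20 ± 0.16 between the treated groups. Its other probe gave -0.97 ± 0.31, -0.14 ± 0.27 and -0.82 ± 0.31 in that order.

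Dcn, which encodes decorin, differed by -0.14 ± 0.08 after doxorubicin, 0.04 ± 0.10 between the treated groups and -0.10 ± 0.10 in pre-treated hearts against control by its brightest probe. A second probe gave 0.15 ± 0.11, -0.62 ± 0.12 and -0.47 ± 0.12, and the third -0.14 ± 0.21, 0.03 ± 0.25 and -0.10 ± 0.25. Bgn, which encodes biglycan, gave 0.08 ± 0.13, 0.12 ± 0.15 and 0.20 ± 0.15. Fmod, fibromodulin, was detected on 2 control arrays, no doxorubicin array and 1 pre-treated array, so no fold is given for it. Vcan, the large proteoglycan versican, did not pass the filter.

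The elastic fibre genes spread widely within the doxorubicin group. Mfap4, a microfibril-associated protein that binds elastin and collagen, had levels of 7.62, 8.84, 6.43, 7.33 and 7.22 after doxorubicin, against 7.45 to 8.22 in controls and 7.58 to 7.81 in pre-treated hearts. Replicate 2 was the highest and replicate 3 the lowest of all 13 arrays. The differences of Mfap4 were -0.27 ± 0.32, 0.21 ± 0.38 and -0.06 ± 0.38. Without replicate 2 the first was -0.61 ± 0.22 (adjusted p = 0.172) and the second 0.55 ± 0.25 (adjusted p = 0.436). Eln, which encodes elastin, and Mfap5, another microfibril protein, gave differences between -0.08 and 0.05 in all 3 comparisons, and replicate 2 was the highest of all 13 arrays for both. Without it the Eln and Mfap5 differences were -0.11 ± 0.18 and -0.19 ± 0.13 after doxorubicin and 0.08 ± 0.21 and 0.13 ± 0.15 between the treated groups.

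Of the lysyl oxidases, which crosslink collagen and elastin, Lox had log2 levels of 6.40, 6.33, 6.12, 6.70 and 6.52 in controls, 6.75, 6.76, 6.58, 6.67 and 6.82 after doxorubicin, and 6.33, 7.03 and 6.37 in pre-treated hearts. The doxorubicin hearts clustered at the top of the control range, with 3 of them above every control. The Lox difference was 0.30 ± 0.14 after doxorubicin (unadjusted p = 0.0498, adjusted p = 0.408), -0.14 ± 0.16 between the treated groups and 0.16 ± 0.16 in pre-treated hearts against control. Loxl1, which is needed for elastic fibres, gave -0.14 ± 0.16, -0.09 ± 0.19 and -0.23 ± 0.19, and the first and second were -0.27 ± 0.14 and 0.04 ± 0.16 without doxorubicin replicate 2.

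Ctgf (now Ccn2), a matricellular growth factor partner and a textbook target of TGF-beta, had the largest difference after doxorubicin among the matrix genes that were not called. Its log2 level was 11.21, 10.74, 11.23, 11.01 and 11.48 in controls, 12.04, 11.32, 12.62, 11.19 and 12.03 after doxorubicin, and 11.81, 11.07 and 11.28 in pre-treated hearts. Of the doxorubicin hearts 3 lay above all controls and 2 lay within their range, and only pre-treated replicate 1 lay above all controls. The Ctgf difference was 0.70 ± 0.25 after doxorubicin (adjusted p = 0.247), -0.45 ± 0.29 between the treated groups (adjusted p = 0.558) and 0.25 ± 0.29 in pre-treated hearts against control (adjusted p = 0.684). Its other probe gave 0.80 ± 0.23, -0.72 ± 0.27 and 0.08 ± 0.27.

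Fn1, which encodes fibronectin, had log2 levels of 7.20, 7.15, 6.96, 6.92 and 7.60 in controls, 7.10, 7.33, 7.10, 6.94 and 7.22 after doxorubicin, and 6.81, 7.32 and 7.19 in pre-treated hearts. The 3 groups overlapped, and the differences were -0.03 ± 0.14, -0.03 ± 0.16 and -0.06 ± 0.16. The 95% interval after doxorubicin was -0.33 to 0.27. Sparc, a collagen-binding matricellular protein, gave -0.17 ± 0.19, 0.15 ± 0.22 and -0.02 ± 0.22, and its 2 other probes 0.20 ± 0.44, -0.85 ± 0.50 and -0.65 ± 0.50 as well as -0.17 ± 0.19, 0.07 ± 0.22 and -0.10 ± 0.22. By the brightest Sparc probe, the first was -0.36 ± 0.13 (adjusted p = 0.194) and the second 0.34 ± 0.15 (adjusted p = 0.434) without doxorubicin replicate 2. Postn, Tnc and Thbs1, which encode periostin, tenascin-C and thrombospondin-1 and are raised in scarring hearts, did not pass the filter in any group.

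Other genes of the matrix were followed in 5 lists. Of 49 further structural matrix genes 36 were tested, and 2 were called, both lower in pre-treated hearts against control: Col4a5, another type IV collagen chain, at -0.56 ± 0.13 (adjusted p = 0.0481), and Vtn, which encodes the adhesion protein vitronectin, at -0.63 ± 0.14 (adjusted p = 0.049). Ecm1, an extracellular matrix glycoprotein, was at 0.61 ± 0.16 in that comparison (adjusted p = 0.0768). Of all genes 0.528% were called lower there. Of the 36 genes 26 were below 0 there, 23 after doxorubicin and 19 between the treated groups, beside 49.9%, 51% and 46.5% of all genes, with medians of -0.10, -0.07 and -0.01. The genes of lowest p after doxorubicin were Mfap2 at -0.39, Ltbp4 at -0.26 and Ecm1 at 0.31, and between the treated groups Col4a5 at -0.40, Fbln1 at -0.41 and Nid2 at -0.36, none of them called.

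No gene of the other 4 lists was called in any comparison. Of 28 genes of collagen synthesis and processing 22 were tested, with medians of 0.03, -0.08 and -0.09 in the 3 comparisons. The chaperone Serpinh1, needed to fold collagen, was at -0.29 ± 0.14 in pre-treated hearts against control (adjusted p = 0.281), beside Fkbp14 at -0.39 and P4ha2 at -0.22. P3h4 was at -0.43, Tgm2 at 0.26 and P3h2 at 0.44 after doxorubicin, and P4ha2 at -0.30, P3h4 at 0.42 and Crtap at 0.25 between the treated groups.

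Of 36 further proteases and inhibitors 22 were tested, with medians of -0.06, -0.04 and -0.13. Timp4, the TIMP most typical of heart, had a difference of 0.96 ± 0.31 after doxorubicin (adjusted p = 0.209) with overlapping groups. Adamts7 was at -0.31 and Htra3 at 0.22 in that comparison. Mmp13 was at -0.61, Plat at -0.48 and Reck at -0.45 in pre-treated hearts against control (adjusted p from 0.101 to 0.129). Plaur was at -0.37, Reck at -0.39 and Adamts15 at -0.38 between the treated groups.

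Of 27 matrix receptors 22 were tested, with medians of 0.00, -0.03 and -0.07. In pre-treated hearts against control Fermt2, an integrin activator, was at -0.28 (adjusted p = 0.106), Itga9 at -0.65 (adjusted p = 0.131) and the laminin receptor chain Itga7 at 0.31 (adjusted p = 0.189). Sdc4 was at -0.25, Sdc2 at -0.27 and Itga9 at -0.37 after doxorubicin, and Itgb5 at -0.51, Sdc3 at 0.31 and Dag1 at -0.61 between the treated groups. Of the 5 other CCN genes 3 were tested: Wisp1 was at 0.56, Wisp2 at -0.06 and Cyr61 at 0.03 after doxorubicin, at -0.40, 0.62 and -0.72 between the treated groups, and at 0.16, 0.55 and -0.69 in pre-treated hearts against control.

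Markers of matrix-producing cells are given beside these values. Of 18 fibroblast markers that are not matrix members, 16 passed the filter and none was called in any comparison. Their summed signal was 9206 to 10985 in controls, 9064 to 10793 after doxorubicin and 9242 to 10357 in pre-treated hearts. Mgp, the brightest of the 16, had a mean log2 level of 12.02 in controls and 12.28 in pre-treated hearts. Of the 16, 13 were below 0 in each comparison with control, beside 51% and 49.9% of all genes. The medians were -0.11 after doxorubicin and -0.27 in pre-treated hearts. At an unadjusted p under 0.05, 4 and 5 were lower and none higher, beside 6.27% and 8.18% of all genes lower. In pre-treated hearts 4 were lower than control without overlap, beside 5.81% of all genes. Lsp1 and Gas1 did not pass. The summed signal of 9 endothelial markers was 16240 to 17960, 16157 to 18715 and 15874 to 16152 in the 3 groups, and that of 10 smooth muscle and pericyte markers 17841 to 22130, 13135 to 21579 and 16123 to 20322. Doxorubicin replicate 2 set the top of the doxorubicin range for the fibroblast, endothelial, and smooth muscle and pericyte sums. All 10 smooth muscle and pericyte markers were below 0 after doxorubicin, with a median of -0.21 and none called, and Kdr and Cnn1 did not pass. The part of these cells in the matrix values was not tested.

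When named as in the series matrix, the same 13 arrays gave no matrix call. No matrix gene and 0% of all genes were called in any of the 3 comparisons (0 genes), and at an unadjusted p under 0.05 there were 1, 0 and 2 matrix genes in the order used above. Mmp3 then differed by 0.30 ± 0.34 after doxorubicin, -0.02 ± 0.39 between the treated groups and 0.29 ± 0.39 in pre-treated hearts against control. Col18a1 differed by -0.40 ± 0.30 in the last comparison (adjusted p = 1). With only the 7 arrays whose group is the same under both sets of names, no matrix gene was called, beside 0%, 0.0384% and 0.0576% of all genes. Mmp3 then was at 0.87 ± 0.20 after doxorubicin (adjusted p = 0.664) and 1.39 ± 0.28 in pre-treated hearts against control (adjusted p = 0.388), and Col18a1 at -1.55 ± 0.29 (adjusted p = 0.383). Each comparison with the pre-treated group there rests on 1 pre-treated array, assumed to vary like the others. Which table names the arrays rightly is not stated in the sources used here.

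**Figure D5:**
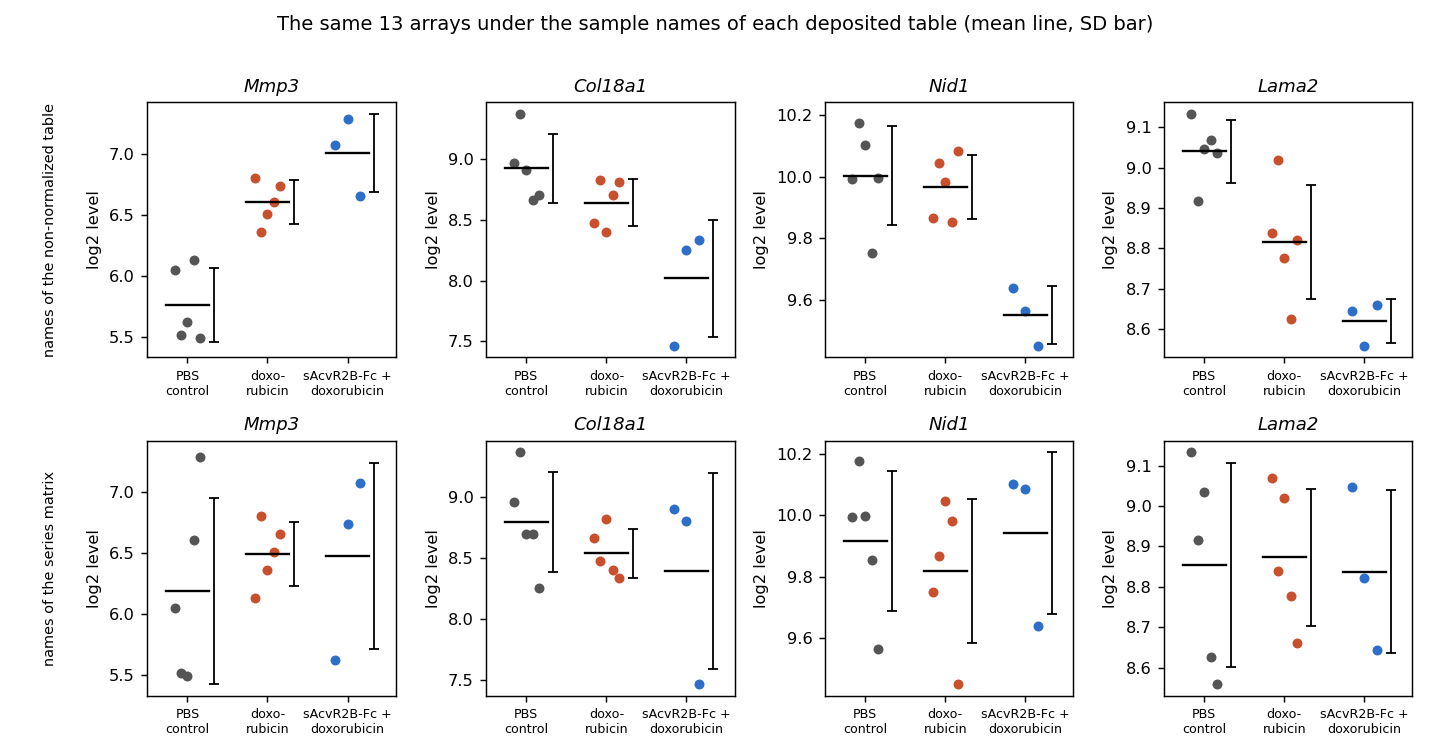
Log2 level of Mmp3, Col18a1, Nid1 and Lama2 on the same 13 arrays, grouped by the names of the non-normalized table (top) and of the series matrix (bottom), with group mean (line) and SD (bar). The Mmp3 means are 5.76, 6.60 and 7.01 in the top row and 6.19, 6.49 and 6.48 in the bottom row, where all groups overlap for each gene.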

How the data were processed

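Total RNA of 13 mouse hearts was labelled as biotinylated cRNA and hybridised to Illumina Expression BeadChips, per the labels' protocols. The authors deposited a non-normalized table that gives, per the file headers, a signal intensity for each of 45281 probes on each array and beside it a detection p-value. The deposited series matrix holds processed intensity values of the same arrays, on a linear scale with column medians of 6.8 to 6.9 and values below 0, and the steps that made it are unknown here. Its columns each matched a single column of the other table (best correlation at least 0.9999937, next at most 0.9038).

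From the non-normalized table, limma 3.58.1 in R 4.3.3 corrected the background (normexp on detection p-values), added an offset of 16, quantile-normalized the arrays and took log2. Probes passed if 3 or more arrays had a detection p-value below 0.05 (18693 of 45281), and each gene was read from its passing probe of highest mean. Of the probes, 34885 had 1 gene symbol, 18 several and 10378 none, and 99.78% of the identifiers were found in the GRCm38.p6 gene table. One linear model over all 3 groups, without covariates, gave moderated tests with Benjamini-Hochberg adjustment of the p-values. The number of arrays limits the precision. The labels number replicates without naming animals. The p-values set group differences against the spread between these samples, each taken as 1 mouse.

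The 44 genes and the related and marker lists were chosen with earlier results of these data known. Values on every array are given for called genes, for up to 8 genes per comparison of lowest unadjusted p under 0.05, and for Col1a1, Col1a2, Col3a1, Fn1, Lox, Ctgf, Mmp2 and Timp1, with Postn listed too but not passing. Every passing gene is named under its role. From each related list up to 3 genes per comparison of lowest p are named, and genes whose probes disagreed are given with every passing probe. The calculations were tested on simulated data. Alternatives are given in the closing section.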

Additional observations from a re-analysis of the deposited data

Results flagged for a closer look

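In groups of 5, an array was picked out when its gap to the nearest other array took up more of the group's range than Dixon's 95% critical value, which chance alone exceeds in about 1 group in 20. Of 74 groups tested, 3 met this. Doxorubicin replicate 2 had a Col1a1 log2 level of 9.8208, with the next doxorubicin array at 9.1872 and the lowest at 9.0966. The same array had a Col4a2 log2 level of 12.6632, with the next at 12.0038 and the lowest at 11.9055. Control replicate 2 had an Adamts1 log2 level of 4.8026, below detection, with the next control at 5.9153 and the highest at 6.2614.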

How the results depend on the processing

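Counts are given in the order doxorubicin against control, pre-treated against doxorubicin alone, and pre-treated against control, where the values reported above were 1, 0 and 2 matrix genes called, 7, 5 and 9 matrix genes at an unadjusted p under 0.05, and 25, 9 and 128 of all genes called. Leaving out each array in turn gave 0 to 4, 0 and 1 to 5 matrix genes called, 5 to 14, 3 to 7 and 5 to 11 at an unadjusted p under 0.05, and 3 to 332 (lowest without doxorubicin replicate 1, highest without doxorubicin replicate 2), 6 to 11 and 25 to 294 (lowest without control replicate 3, highest without doxorubicin replicate 2) of all genes. Under the series matrix names no gene was called (0, 0 and 0 of all genes and of the matrix genes), with 1, 0 and 2 matrix genes at an unadjusted p under 0.05, or 1, 0 and 1 on series matrix values. The 7 arrays of unchanged group gave 0, 4 and 6 of all genes, no matrix call, 3, 1 and 3 at an unadjusted p under 0.05, and a matrix median of -0.25 in the last comparison. Median scaling called 0 matrix genes in the first comparison and 1 in the last, with 3, 2 and 4 at an unadjusted p under 0.05 and 25 of all genes in the last. Without background correction 0 and 4 matrix genes and 43 and 238 of all genes were called in the first and last comparisons. Without the detection filter 0 matrix genes were called in the first. Requiring detection on all arrays of a group, which left 34 matrix genes, called 38 of all genes in the first and 4 matrix genes in the last (Mmp3, Col18a1, Lama2 and Nid1). The mean of all passing probes called 1 matrix gene in the last. Series matrix values under the names of the non-normalized table, an alternative chosen after seeing the data, called 0 and 1 matrix genes and 12 and 78 of all genes in the first and last, with 3 matrix genes at an unadjusted p under 0.05 in the second. The fit with the replicate block called 4, 64 and 210 of all genes and 0, 0 and 2 matrix genes, with 8 at an unadjusted p under 0.05 in the second. The replicate numbers were not taken as pairs in the main fit. Deviations of same-numbered arrays correlated from -0.245 to 0.386, over 0.1 in 4 of 11 pairs. These few correlations cannot decide whether same-numbered arrays were handled together. No called matrix gene changed sign under any of these alternatives. Among all 111 matrix differences, called or not, 35 changed sign under the series matrix names, or 34 on series matrix values. With the 7 arrays of unchanged group 23 changed sign, with median scaling 19, with the mean of all passing probes 8, and without 1 array 2 to 14. The causes of these shifts were not tested. Probes near background limit Adamts1, Col1a2, Col5a2, Fmod and Lamb1, which were not detected on all 13 arrays.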
